A study of Homo sapiens with 4 samples.

Results

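Lysine-rich coding tracts are stretches of an mRNA in which most codons call for lysine, and the crosslinking of the dipeptide repeat PR100 to them was measured. A tract was any window of 10 codons with at least 6 lysine codons (AAG or AAA) in the Ensembl canonical coding sequence of a protein-coding gene on chromosomes 1 to 22 and X, with overlapping windows merged. The scan of 19967 coding sequences found 1105 tracts in 874 genes. Of these, 46 shared positions with a tract of a longer coding sequence, so 1059 tracts in 831 genes were counted, which together with the 30 nt upstream of each spanned 72669 nt. The upstream stretch was included because the deposited positions lie at the nucleotide before a cDNA, so that a site read into the tract starts in front of it.

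The data were 4 iiCLIP libraries of a single group, HEK293T cells (a transformed human embryonic kidney line) that were transiently transfected with a plasmid for PR100 carrying a triple FLAG tag, induced with doxycycline at 150 ng/ml for 24 h and irradiated once with UV light of 254 nm at 160 mJ/cm2. Replicate 4 was purified on beads, in place of the SDS-PAGE gel used for the other 3 libraries. The random barcode that tells cDNA molecules from PCR copies had 5 nt in replicate 3 and 7 nt elsewhere. Depth was 334057, 604816, 125694 and 179636 events (replicates 1 to 4), of which 43360, 114113, 17753 and 53649 lay in the scanned coding sequences, with positions shared by overlapping coding sequences counted once. The shallower pair of libraries falls below the minimum depth stated in the methods of the study. No library of a control or of GA100 was used here, so all comparisons are between places on the same RNAs. Transient transfection leaves cells with unequal amounts of the construct, and no source used here says that the replicates were separate cultures, so p-values measure only the spread between these 4 libraries. Replicate 3, the shallowest library and the one with the shorter barcode, stood apart in several results, and the main ones are given with and without it.

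Poly(PR) is a chain of alternating proline and arginine that is made from the expanded repeat of the C9orf72 gene in amyotrophic lateral sclerosis and frontotemporal dementia, and its positive charges bind RNA. Lysine tracts are a feature of proteins that enter the nucleus or hold nucleic acids, among them linker histones, nucleolar proteins, ribosomal proteins and splicing factors. At the level of RNA they are runs of purines, and the choice between AAG and AAA sets how much guanine the run holds. The pentamer GAAGA, which the study took from the sequences at PR100 sites, is spelled, among other ways, where a codon that ends in G is followed by AAG and then by a codon that starts with A.

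The densest 10-codon windows of 9 tracts are shown because the results below turn on them, each read 5′ to 3′ on the coding strand from GRCh38, with lysine codons in capitals and all other codons in lower case. The first 7 had many events for the density of their own coding sequence, the next came from a linker histone with 1.59 times its expected count, and the last had no event.
HSP90AA1 (chr14:102084813-102084842, minus strand): AAGAAGAAGAAGAAGAAGattAAGgaaAAG
HSP90AB1 (chr6:44250426-44250455, plus strand): ggtAAGgatAAGAAGAAGAAAactAAGAAG
METAP2 (chr12:95483244-95483273, plus strand): ggaAAGAAGAAGAAAAAGAAGAAGAAGAAG
SRRM2 (chr16:2758507-2758536, plus strand): ccaAAGcagAAGAAGAAGAAAAAGAAGAAA
NOP58 (chr2:202303389-202303418, plus strand): ccagagAAAAAGAAGAAAAAGAAAAAAAAG
CHD4 (chr12:6602029-6602058, minus strand): AAGAAGAAGAAGAAGAAGcttggacctAAG
SON (chr21:33549565-33549594, plus strand): AAAAAGcacAAAaacAAAAAGAAGAAAAAG
H1-4 (chr6:26156832-26156861, plus strand): AAGAAGagcgccAAGAAGaccccaAAGAAG
UPF3B (chrX:119845229-119845258, minus strand): caaAAAgctgcaAAAAAGAAGactAAGAAA

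The tracts were short and scattered. Their length ranged from 10 to 39 codons with a median of 12, they held 6 to 23 lysine codons with a median of 7, and 840 of the 1059 lay in a single coding exon. Of their 7787 lysine codons, 4424 were AAG and 3363 were AAA, so AAG made up 56.8%, close to the 55.6% over all lysine codons of the scanned sequences. At least 66.7% of the lysine codons were AAG in 411 tracts and AAA in 213 tracts, and 435 tracts mixed the codons more evenly. Adenine made up 47.4% of the tract regions, against 25.9% of all coding sequence, while guanine was about even at 24.8% against 26.3% and uracil stood at 12.3% against 21.8%. GAAGA, searched on the coding strand with overlapping copies counted, occurred in 786 of the 1059 regions (74.2%). With every region set to 60 nt, the share was 70.9%, against 15.9% of the 549786 windows of 60 nt that tile all coding sequences. Acidic tracts were built by the same rule from codons for aspartate and glutamate. A lysine tract was taken to touch one where its region met the acidic tract or the 30 nt upstream of it. This held for 121 of the regions (11.4%).

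Most tracts were thinly covered. No event was found in 501 of the 1059 tracts in any library, at least 1 event in 558 and at least 10 pooled events in 68. The median tract had 1 pooled event and the highest had 219. HSP90AA1 alone gave 8.28% of all tract events and the 10 leading genes gave 31.8%. The significant clusters that the authors called on the pooled libraries touched 118 tracts and covered 7.23% of the tract regions, against 1.99% of the rest of the same coding sequences.

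PR100 crosslinked to lysine tracts at 1.91 ± 0.606 (SD, n = 4) times the density in the rest of the same coding sequences. The expected count of a tract was the event density of its own coding sequence outside all lysine tract regions multiplied by the length of the region, so that the abundance of the mRNA cancels. Replicate 1 had 505 events where 261.2 were expected, and replicate 2 had 1606 where 721.2 were expected. Replicate 3 had 107 events where 101.0 were expected, and replicate 4 had 960 where 394.0 were expected. The ratios were thus 1.93, 2.23, 1.06 and 2.44, with replicate 3 near 1 and the other 3 libraries close together. On the log2 scale the mean was 0.87 ± 0.54 (SD, n = 4), above 0 in 4 of 4 libraries (p = 0.125 in an exact two-sided sign-flip permutation test, adjusted p = 0.172 over the 11 tests made), and 1.13 without replicate 3. With 4 libraries this test can give no p below 0.125, so no result here can reach 0.05. Lysine tracts took 1.24% ± 0.497 (SD, n = 4) of the coding sequence events of a library, ranging from 0.603% in replicate 3 to 1.79% in replicate 4, on 0.216% of the coding length.

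The reference mattered for the size of this value. Against the windows of the same coding sequences with at least 70% A and G, the mean log2 ratio was 0.18 ± 0.31 (SD, n = 4) and above 0 in 3 of 4 libraries. Without the tracts that touch an acidic tract it was 0.70, and without HSP90AA1 and HSP90AB1 it was 0.73, each time above 0 in 3 of 4 libraries.

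By the main reference, lysine tracts stood near acidic tracts and apart from arginine tracts in 3 of the 4 libraries. The 8093 counted acidic tracts had a mean log2 ratio of 1.10 ± 0.15 (SD, n = 4), and the 653 counted arginine tracts 0.28 ± 0.17 (SD, n = 4). Lysine minus acidic tracts was -0.08, 0.06, -0.88 and -0.04 in replicates 1 to 4, a mean of -0.24 ± 0.44 (SD, n = 4) that was smaller than its spread (p = 0.375, adjusted p = 0.41, exact sign-flip test) and -0.02 without replicate 3. Lysine minus arginine tracts was 0.90, 0.78 and 1.02 in replicates 1, 2 and 4 and -0.35 in replicate 3, with a mean of 0.59 ± 0.63 (SD, n = 4, p = 0.25, adjusted p = 0.31, exact sign-flip test) and 0.90 without replicate 3. The order of lysine and arginine tracts was therefore the same in replicates 1, 2 and 4 and opposite in replicate 3. The closeness to acidic tracts depended on the setting. Lysine minus acidic tracts was below 0 in 4 of 4 libraries with the reference of at least 70% A and G (-0.53). The same held with the reference within 300 nt on either side (-0.34) and with no upstream flank (-0.51). With the 70% reference, acidic tracts kept 0.71 and lysine tracts 0.18. Of the alternatives, 17 kept the sign and 1 turned it.

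Events gathered in front of the tracts. In the 30 nt before the first base of the tract the density was 2.34 ± 0.796 (SD, n = 4) times the rest, with 2.37, 2.79, 1.22 and 3.00 in replicates 1 to 4. The tract itself had 1.63 ± 0.472 (SD, n = 4), and the first 30 nt after it 1.13 ± 0.217 (SD, n = 4). Further upstream the values were 1.89 from 60 to 31 nt before the tract, 1.67 from 90 to 61 nt and 1.41 from 150 to 121 nt, still above 1, whereas the bins downstream lay between 0.911 and 1.30. In replicates 1, 2 and 4 the bin just before the tract was the highest of the 11 bins, but in replicate 3 it was the bin from 90 to 61 nt upstream, with 1.75.

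The density went with how full of lysine codons the tract was. Tracts whose densest window held 8 or more lysine codons (100 tracts) had 3.72 ± 0.282 (SD, n = 4) times the expected events, with 3.56, 3.76, 3.46 and 4.10 in replicates 1 to 4. Those with 7 (215 tracts) had 2.38 ± 0.530, and those with 6 (744 tracts) had 1.40 ± 0.668 (SD, n = 4 each). The 2644 stretches just outside the rule, with exactly 5 lysine codons, had 1.43 ± 0.239 (SD, n = 4). Tracts with 6 lysine codons had 1.58, 1.74, 0.420 and 1.88 in replicates 1 to 4 and stretches with 5 had 1.37, 1.41, 1.18 and 1.76, so that those with 6 were above those with 5 in replicates 1, 2 and 4 and below them in replicate 3, on 29 events. For the 100 fullest tracts the lowest library was above the highest library of the tracts with 7 and with 6. Without HSP90AA1 and HSP90AB1 the ratio was 3.32 ± 0.610 with 8 or more and 1.99 ± 0.552 with 7 (SD, n = 4 each).

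The density also rose with acidic codons in the tract, and with copies of GAAGA up to 2 copies. Tracts with no GAAGA in the region (273 tracts) had 1.12 ± 0.583 times the expected events, those with 1 copy 1.62 ± 0.337, those with 2 copies 2.53 ± 0.598 and those with 3 or more 2.56 ± 0.894 (SD, n = 4 each). Tracts with GAAGA minus tracts without it gave log2 differences of 0.64, 1.09, 2.23 and 0.72 in replicates 1 to 4, with a mean of 1.17 ± 0.73 (SD, n = 4), the same direction in 4 of 4 libraries (p = 0.125, adjusted p = 0.172, exact sign-flip test) and 0.82 without replicate 3, in which the tracts without GAAGA had only 8 events. With no acidic codon inside the tract (390 tracts) the ratio was 1.25 ± 0.475, with 1 it was 1.79 ± 0.529, with 2 it was 2.33 ± 0.665, and with 3 or more (180 tracts) it was 2.95 ± 0.939 (SD, n = 4 each). Without HSP90AA1 and HSP90AB1 the ratio was 2.02 ± 0.736 with 3 or more copies of GAAGA and 2.62 ± 0.767 with 3 or more acidic codons (SD, n = 4 each). Without these genes, 3 or more copies of GAAGA lay below 2 copies in 4 of 4 libraries. The 121 tracts that touch an acidic tract had 2.89 ± 0.991 and the other 938 had 1.70 ± 0.532 (SD, n = 4 each), and without HSP90AA1 and HSP90AB1 those that touch one had 1.99 ± 0.803 (SD, n = 4), below the other 938 in replicate 1. Mixed tracts had 1.67 ± 0.963 where they touch an acidic tract and 2.08 ± 0.636 where they do not, and tracts of mostly AAA 1.61 ± 1.21 and 1.32 ± 0.399 (SD, n = 4 each). In tracts away from acidic tracts, those with GAAGA had 1.96 ± 0.513 and those without 1.05 ± 0.533 (SD, n = 4 each). The parts of lysine codons, GAAGA and acidic codons in these values were not separated further and were not tested. The study found GAAGA at PR100 sites of these same data, so the values by GAAGA are not an independent test of it.

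Tracts spelled mostly with AAG were more densely crosslinked than tracts spelled mostly with AAA in each library. Tracts of mostly AAG had 261, 840, 58 and 444 events in replicates 1 to 4 where 115.7, 342.4, 48.3 and 183.03 were expected, a mean log2 ratio of 1.003 ± 0.49 (SD, n = 4, p = 0.125, exact sign-flip test) and 1.25 without replicate 3. Tracts of mostly AAA had 77, 196, 13 and 150 events where 52.1, 140.4, 19.997 and 73.5 were expected, a mean of 0.36 ± 0.70 (SD, n = 4, p = 0.5, exact sign-flip test), below expectation in replicate 3, that was 0.69 without replicate 3 and 0.14 without replicate 4. The lysine codons of both classes encode the same residue, but the classes are different tracts and also differ in their other codons. An acidic tract was touched by 9.25% of tracts of mostly AAG and 16.4% of tracts of mostly AAA. The log2 ratio of mostly AAG minus mostly AAA tracts was 0.61, 0.81, 0.89 and 0.25 in replicates 1 to 4. The mean of this difference was 0.64 ± 0.29 (SD, n = 4, p = 0.125, adjusted p = 0.172, exact sign-flip test), in the same direction in 4 of 4 libraries. Mixed tracts lay between in the mean, at 0.91 ± 0.57 (SD, n = 4). In replicate 4 mixed tracts were above both, at 1.41 against 1.28 for mostly AAG and 1.03 for mostly AAA.

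The size of that difference depended on a few tracts and on the setting. It was 0.35 without HSP90AA1 and HSP90AB1, above 0 in 3 of 4 libraries, and 0.24 without the tracts that touch an acidic tract, above 0 in 4 of 4. With each position counted once it was 0.24, above 0 in 4 of 4 libraries, and with tracts of at least 5 lysine codons in 10 it was 0.27, above 0 in 3 of 4. Without the 10 coding sequences with the most tract events it was 0.43, above 0 in 4 of 4. Other settings gave a larger difference. It was 1.11 with at least 7 lysine codons in 10, above 0 in 4 of 4 libraries. As the median over coding sequences with at least 5 pooled events expected it was 0.91. The 38 tracts of mostly AAG that touch an acidic tract had a ratio of 5.32 ± 0.749 (SD, n = 4), and 219 and 168 of their 531 events came from HSP90AA1 and HSP90AB1, without which the other 36 had 3.23 ± 1.37 (SD, n = 4). The authors kept only reads that map to a single place. The 30 nt that follow a position occurred elsewhere in GRCh38 for 8.06% of positions in tract regions and 5.51% in the rest. Both shares count only positions whose following 30 nt lie in a single coding exon. Without the 191 tracts that hold such a recurrent stretch, the difference was 0.16 and above 0 in 2 of 4 libraries. GAAGA was also unevenly shared, being present in 87.3% of tracts of mostly AAG, 70.8% of mixed tracts and 55.9% of tracts of mostly AAA. Among tracts of mostly AAG, the 359 with GAAGA had 2.40 ± 0.539 times the expected events and the 52 without it 0.831 ± 0.577 (SD, n = 4 each). Replicate 3 had no event in the 52, whose ratios were 1.32, 1.07 and 0.930 in replicates 1, 2 and 4. Among tracts of mostly AAA the values were 1.40 ± 0.690 with GAAGA and 1.38 ± 0.472 without it (SD, n = 4 each).

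Single lysine codons gave a smaller difference of the same sign upstream and the opposite sign on the codon itself. Each codon was scored over its own 3 nt and the 30 nt before it, windows that overlap between neighbouring codons. Inside tracts AAG had 2.14 ± 0.876 times the expected events and AAA 1.72 ± 0.650, a log2 difference of 0.28 ± 0.18 (SD, n = 4 each) that was above 0 in 4 of 4 libraries (p = 0.125, adjusted p = 0.172, exact sign-flip test). Outside tracts, over 352577 AAG and 281637 AAA codons, the values were 1.09 ± 0.0404 and 1.01 ± 0.0589, a log2 difference of 0.11 ± 0.045 (SD, n = 4 each), again above 0 in 4 of 4 libraries (p = 0.125, adjusted p = 0.172, exact sign-flip test). Leaving out windows with GAAGA gave 0.20 inside tracts, above 0 in 3 of 4 libraries, and 0.14 outside, above 0 in 4 of 4. In coding sequences with at least 100 pooled events the difference outside tracts was 0.019, above 0 in 2 of 4 libraries.

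On the 3 nt of the codon the order turned around. Inside tracts AAG had 0.895 ± 0.481 times the expected events and AAA 1.70 ± 0.706 (SD, n = 4 each). AAA was above AAG in 4 of 4 libraries, with a log2 difference of -1.12 ± 0.85 (SD, n = 4). In replicates 1 to 4, AAG had 1.19, 1.25, 0.204 and 0.933 times the expected events and AAA 1.30, 2.34, 0.915 and 2.26. In replicate 3, AAG and AAA had only 4 and 12 events. Outside tracts they had 0.764 ± 0.0846 and 1.10 ± 0.278 (SD, n = 4 each), a log2 difference of -0.49 ± 0.26 with AAA above AAG in 4 of 4 libraries. In the 30 nt after the codon, AAG and AAA had 1.47 ± 0.0801 and 1.45 ± 0.143 inside tracts and 1.05 ± 0.0516 and 1.05 ± 0.0249 outside (SD, n = 4 each), so no order was seen there. In the summed libraries AAG codons of tracts ran from 3.83 times the expected events 30 nt before their first base to 0.697 on their middle base, and AAA codons from 2.68 to 2.08 at the same places.

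Of the 1059 tracts, 50 had at least 5 pooled events expected from the rest of their coding sequence, a filter that does not use the events in the tract. Among these, a tract was called higher when its pooled density was at least 2 times that of the rest and above it in all 4 libraries, and lower when it was at most 0.5 times the rest and below it in all 4. The rule called 5 of the 50 tracts higher (10%) and 4 lower (8%), while of the 2208 windows of 60 nt of all coding sequences that passed the same filter it called 1.86% higher and 27.2% lower. The 60-nt windows are shorter than many tract regions, and with the tracts set to 60 nt as well, 1 of 37 was called higher (2.7%) and 3 lower (8.11%). Replicate 3, where the expected count of a tract is often below 1, strongly affected the number of higher calls but not that of lower calls. With the direction asked for in replicates 1, 2 and 4 only, 18 of 50 tracts (36%) were called higher, or 13 of 37 as 60-nt regions (35.1%), against 7.25% of windows. Lower calls were then 4 of 50 tracts (8%) against 31.2% of windows. The median log2 ratio of the 50 tracts was 0.86, that of all 2208 windows -0.46, and that of the 257 windows with at least 70% A and G 0.34. By the rule with all 4 libraries the tracts called higher were those of HSP90AB1, NOP58, SRRM2, CHD4 and SRSF11, and those called lower included tracts of RPL6, NOP56 and UPF3B.

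The 2 tracts with the most events were in the cytosolic HSP90 chaperones, which fold kinases and steroid receptors and carry a charged linker of lysine and glutamate. In HSP90AA1 the tract at codons 268 to 285 (chromosome 14, 102084807 to 102084860) had 39, 105, 1 and 74 events in replicates 1 to 4, or 116.7, 173.6, 7.96 and 411.9 CPM of the library, where 3.97, 11.6, 2.09 and 10.97 events were expected. All of its 10 lysine codons were AAG, the region held 8 copies of GAAGA, and the sum of 219 events was 7.64 times that expected, with replicate 3 alone below expectation. In HSP90AB1 the tract at codons 261 to 276 (chromosome 6, 44250423 to 44250470) had 20, 96, 11 and 41 events where 1.45, 5.55, 0.745 and 4.77 were expected, 13.4 times in the sum and above the rest in 4 of 4 libraries, and 40 of its 168 events lay at 1 position. The second HSP90AA1 tract, at codons 558 to 567, had 44 events where 20.5 were expected. These paralogues share sequence with each other and with copies elsewhere: a following 30 nt that recurs in the genome was found at 63.1% of positions in the first tract and 62.8% in that of HSP90AB1, and its part in the counts was not tested.

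Splicing factors were 1 of 7 lists of genes set for this report. Of the 25 genes, 12 had 20 tracts with 283 events where 104.0 were expected (2.72 times), with 2.09, 2.73, 3.43 and 2.98 times in replicates 1 to 4. Of these, 8 tracts passed the filter, all 8 were above the rest in the sum, 2 were called higher and none lower. Among all 50 lysine tracts past the filter, 34 were above the rest, 5 were called higher and 4 lower. Of the 2208 windows of 60 nt past it, 34.3% were above the rest, 1.86% were called higher and 27.2% lower. The other lists share this reference. In SRRM2, a scaffold of nuclear speckles, the tract at codons 183 to 198 had 6, 15, 6 and 8 events in replicates 1 to 4 where 1.89, 4.11, 0.339 and 1.68 were expected, 4.37 times in the sum. In SRSF11, an SR-related splicing factor with 3 tracts, the one at codons 312 to 322 had 8, 9, 2 and 7 events where 1.76, 4.47, 0.352 and 3.72 were expected, so that it was above the rest in 4 of 4 libraries although it is spelled mostly with AAA. The SRSF11 tract at codons 373 to 385 had 1, 22, 0 and 17 events and 3.55 times the expected sum, which rests on replicates 2 and 4. SRRM1, a splicing coactivator with 20 lysines in a tract of 32 codons, had 1, 18, 11 and 9 events where 1.41, 4.87, 0.195 and 3.02 were expected, below expectation in replicate 1 only. SON, which organises speckles, had 30 events in the tract at codons 104 to 131 where 4.46 were expected, under the filter.

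Nucleolar proteins had a pooled ratio of 2.29, from 221 events where 96.5 were expected in 33 tracts of 16 of the 33 genes listed. Of the 9 tracts past the filter 6 were above the rest in the sum, 1 was called higher and 1 lower. NOP58 and NOP56 are core proteins of the box C/D particles that guide RNA methylation. The last NOP58 tract, at codons 513 to 528, had 2, 6, 11 and 6 events where 1.48, 2.51, 0.342 and 0.969 were expected, and 10 of its 25 events lay at 1 position. The NOP58 tract before it had 0, 9, 0 and 12 events, so that it was above the rest in only 2 libraries with 4.12 times the expected sum. The 4 tracts of NOP56 ranged from 19 events where 6.39 were expected, at codons 443 to 453, to none where 6.08 were expected, at codons 505 to 514. TCOF1, which supports transcription of ribosomal RNA genes, had 4, 10, 0 and 12 events at codons 1436 to 1468 where 0.994, 3.19, 0.0603 and 2.17 were expected. DKC1, the pseudouridine synthase of box H/ACA particles, had 30 events in 3 tracts where 8.03 were expected. NCL, NEFM and HNRNPU, which the study names, had no lysine tract by this rule.

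Chromatin remodelling genes had 161 events where 60.5 were expected in 35 tracts (2.66 times, and 3.62, 2.35, 3.22 and 2.42 times in replicates 1 to 4), and 19 of the 27 genes listed had a tract. Only 1 of these tracts passed the filter, and it was called higher. It lies in CHD4, the ATPase of the NuRD complex, at codons 110 to 133, with 4, 4, 6 and 4 events where 0.995, 2.82, 0.207 and 1.48 were expected. The other 3 CHD4 tracts had 9, 0 and 3 events where 4.21, 3.40 and 3.24 were expected, so the tracts of this gene ranged from none to many events for their reference. In BAZ2A, a subunit of the nucleolar silencing complex NoRC, 2 tracts had 13 events each where 1.999 and 1.60 were expected and the other had 1. SMARCA4, an ATPase of the SWI/SNF complexes, had 8, 5, 0 and 1 events where 3.27 were expected in all, and BAZ1B had 12 events where 4.47 were expected.

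Topoisomerases and chromosome structure genes had 43 events where 16.8 were expected in 8 tracts of 5 of 14 genes (2.56 times), and no tract passed the filter. TOP1, which relaxes supercoils through single-strand breaks, had 5, 6 and 3 events in its 3 tracts where 3.23, 3.71 and 2.58 were expected. TOP2A had 11 events where 3.83 were expected, and NIPBL, the cohesin loader, had 6 and 1 events where 0.676 and 0.705 were expected. No event of replicate 3 fell in any of these 8 tracts.

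Linker histones and HMG proteins were the list nearest to 1, with 295 events where 242.4 were expected in 19 tracts of 9 of 17 genes (1.22 times). Linker histones close the nucleosome, and their C-terminal tails are built of lysine, alanine and proline. Of the 12 tracts past the filter 6 were above the rest, with a median log2 ratio of 0.00, none was called higher and 1 was called lower. The first tract of H1-4, at codons 148 to 161, had 12, 38, 5 and 19 events in replicates 1 to 4 where 5.49, 26.8, 3.92 and 10.2 were expected, above the rest in 4 of 4 libraries but only 1.59 times in the sum. The next H1-4 tract, at codons 168 to 183 and mostly AAA, had 46 events where 42.6 were expected, and the last, at codons 210 to 219, had 20 where 38.7 were expected. H1-2 ran the same course along its tail, with 53, 19 and 14 events where 20.6, 17.2 and 17.2 were expected, and the first of these had 39 of its events in replicate 2. No recurrent 30 nt were found after positions in these tracts of H1-4 and H1-2. The last tract of each gene ends with its coding sequence, so part of its positions could not be assessed.

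Translation factors had 49 events where 25.8 were expected in 10 tracts of 6 of 19 genes (1.90 times), with 0.774, 1.57, 2.51 and 2.98 times in replicates 1 to 4 and so below expectation in replicate 1. Of these, 1 tract passed the filter and none was called. That tract, in EIF5B, which joins the ribosomal subunits at the start codon, had 2, 5, 0 and 8 events at codons 310 to 334 where 5.80 were expected in all. The other 2 EIF5B tracts, at 5 and 4 events where 4.48 and 3.98 were expected, were near expectation. EIF2S2, a subunit of the factor that brings the initiator tRNA, had 1, 0 and 8 events in its 3 tracts, whose positions were followed by recurrent 30 nt in 81.3%, 96.2% and 89.3% of cases. Neurofilament and microtubule genes had 16 events where 6.78 were expected in 6 tracts of 4 of 12 genes (2.36 times), with none past the filter. By library the ratio was 3.74, 1.11, 0 and 5.02, on few events. MAP1B, which binds microtubules in axons, held 3 of these tracts, with 1, 5 and 6 events where 0.885, 1.42 and 0.929 were expected.

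Other tracts with many events were in genes of no list. RPL5, a ribosomal protein that carries 5S RNA to the ribosome, had 7, 22, 0 and 18 events at codons 254 to 265 where 3.04, 6.88, 0.4 and 6.16 were expected, with recurrent 30 nt at 56.1% of positions. METAP2, which removes the first methionine of new proteins, had 7, 11, 0 and 8 events at codons 94 to 111 where 0.920, 2.30, 0 and 2.17 were expected, 4.82 times in the sum. DNMT1, the maintenance DNA methyltransferase, had 17 events where 5.10 were expected at codons 732 to 741.

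Among the tracts called lower, RPL6 at codons 32 to 42 and NOP56 at codons 505 to 514 had none in any library where 6.89 and 6.08 were expected, and a count of 0 allows up to 3 events. In both, every position was followed by 30 nt that recur elsewhere in the genome, so reads there could be lost from a list of uniquely mapped reads, which was not tested. UPF3B, a factor of nonsense-mediated decay, had none at codons 137 to 150 where 5.44 were expected, and no recurrent stretch was found in this tract. The 5 longest tracts ranged from none to many events. Beside SRRM1 and TCOF1, with 39 and 26 events in 32 and 33 codons, the longest, 39 codons with 23 lysines in SREK1IP1, had 7 events where 3.18 were expected, RP9 with 34 codons had 1 where 2.24 were expected, and CYLC2, a gene of the sperm head, had no event anywhere in its coding sequence.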

How the data were processed

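The authors collapsed PCR copies by the random barcode, mapped reads to GRCh38 with Gencode 27 using STAR (version not given in the sources used here) with 2 mismatches allowed, kept unique alignments and recorded the base in front of each read. The deposited values are raw counts of distinct cDNAs at each stranded position. The pooled list equals the sum of the 4 libraries at every position. The pooled clusters, which the authors derived from iCount (false discovery rate under 0.05), carry summed counts as their score and were used only for overlap. The cluster lists of single libraries were not used.

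Positions were placed on the canonical coding sequences of GENCODE 44, later than the annotation the authors used. Expected events came from the density in the rest of the same coding sequence, and CPM from the total of each library. Sums over tracts were tested over libraries by exact sign-flip permutation (two-sided), with Benjamini-Hochberg adjustment over 11 tests. The single-tract log2 ratio adds 0.5 to observed and expected events. Library totals ran from 125694 to 604816 events, so that single tracts are imprecise in the small libraries. Each ± is the SD between the 4 libraries. The limit of 3 events for a count of 0 covers counting error only. Named tracts were the 10 with the most events, the 10 highest and 5 lowest ratios past the filter, the 5 longest, up to 4 leading genes of each gene list and the 3 leading tracts of each codon class. A few named items are not reported here. The tracts, gene lists and tests were chosen with earlier results of these data known. Other settings numbered 215, and 30 more were added after the data were seen. On simulated data, with events drawn at even density along each coding sequence, the summed log2 ratio was 1.88 for 100 tracts raised 4-fold. It was 1.01 for 100 tracts raised 2-fold and -0.07 for 859 unchanged tracts. In the same order, 5 of 8, 0 of 6 and 0 of 44 tracts past the filter were called higher, and 0 of 8, 0 of 6 and 3 of 44 lower. The simulation holds no clustering of events within a coding sequence, so these counts are not error rates for the real libraries. A recount of 100 tracts by another route gave the same count for 100. Scripts ran on Python 3.11.15 with matplotlib 3.10.9, numpy 2.4.6, scipy 1.17.1 and pandas 2.3.3.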

Additional observations from a re-analysis of the deposited data

Results flagged for a closer look

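Of 20 sets of 4 libraries that were checked, 2 had a library far from the other 3 for the range of the set (gap over range above Dixon's limit for 4 values), where chance alone gives about 1 in 20. Replicate 3 was the library in both. Tracts of mostly AAG had a log2 ratio of 0.27 in replicate 3 and of 1.17, 1.29 and 1.28 in replicates 1, 2 and 4. Lysine minus acidic tracts was -0.88 in replicate 3 and between -0.08 and 0.06 in the other libraries. Replicate 3 has the fewest events, 125694, and the random barcode of 5 nt, and their part in these values was not tested.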

How the results depend on the processing

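No paired analysis was possible because all 4 libraries belong to 1 group. No test can pass 0.05 with 4 libraries, so only direction and size are compared. The log2 ratio of lysine tracts kept its direction under all 22 alternatives, from 0.18 (reference of at least 70% A and G) to 1.48 (at least 7 of 10 codons). The differences of mostly AAG against mostly AAA tracts (22 alternatives) and of tracts with and without GAAGA (20) also kept their direction. The latter could not be fitted with 30 nt downstream or with at least 7 codons, where replicate 3 had no event in tracts without GAAGA. The difference of AAG and AAA codons turned to -1.12 inside and -0.49 outside tracts on the codon itself, and to -0.00065 outside tracts in the 30 nt downstream. Tracts of mostly AAA turned to -0.10 with the 30 nt downstream in place of upstream and -0.13 with the reference of at least 70% A and G. Arginine tracts turned to -0.049 without the 10 coding sequences with the most tract events, -0.23 with at least 7 codons, -0.33 as the median over coding sequences and -0.44 with the 70% reference. Lysine minus acidic tracts turned to 0.067 with at least 7 codons. It otherwise lay between -0.53 (70% reference) and -0.02 (without replicate 3). The share of coding sequence events was 2.88% with at least 5 codons, 0.585% with at least 7 and 0.61% with no upstream flank. Higher calls, 5 of 50, were 1 as 60-nt regions, 2 of 19 with at least 10 expected events, 8 of 179 with at least 2, 18 with the direction in replicates 1, 2 and 4, 0 of 23 with no upstream flank, and 2 to 16 when 1 library was left out (2 of 19 without replicate 2, 16 of 40 without replicate 3, 3 of 34 without replicate 4). Lower calls, 4 of 50, were 0 with at least 10 expected events, 15 with at least 2, 1 with each position counted once, and 2 to 5 when 1 library was left out. Beyond what the construction of an alternative shows (fewer tracts tested), the cause was not tested.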

Other observations

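The crosslinked nucleotide itself was more often uracil than the makeup of the tracts. In tract regions 39.6% ± 2.45 of the events lay on adenine, which made up 47.4% of positions, 22.4% ± 5.78 on guanine at 24.8% of positions, 19.9% ± 3.63 on cytosine at 15.5% and 18.1% ± 2.48 on uracil at 12.3% (SD, n = 4 each). In the rest of the same coding sequences uracil took 29.5% ± 4.04 of the events (SD, n = 4) at 22.0% of positions. In each of the 4 libraries the share on uracil was above its share of positions, from 15.1% in replicate 2 to 20.6% in replicate 3 within tract regions.

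Ribosomes are known to slip on long runs of adenine, and the ratio did not rise steadily with the length of the longest run. The 100 tracts with a run of 8 or more adenines had 2.87 ± 0.826 times the expected events, the 357 with a longest run of 6 or 7 had 1.55 ± 0.705, and the 602 with shorter runs had 2.01 ± 0.681 (SD, n = 4 each). Tracts with 8 or more were above those with 6 or 7 in 4 of 4 libraries. They were above those with shorter runs in all libraries except replicate 1. Of these 3 classes, the first is the one in which replicate 3 was the highest library, with 3.96, on 27 events. When coding sequences were cut into 3 equal parts, the 310 tracts in the middle part had 2.55 ± 0.673, the 351 in the first part 1.83 ± 0.585 and the 398 in the last part 1.63 ± 0.575 (SD, n = 4 each). Without HSP90AA1 and HSP90AB1 the middle part had 1.84 ± 0.464 (SD, n = 4), below the first part in replicates 2 and 4.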
